A study of Rattus norvegicus with 20 samples.

Results

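Soleus muscle of contused rats that walked in shallow water was compared with soleus muscle of rats whose spinal cord had been cut through completely. The comparison takes 8 of the 20 RNA sequencing libraries in the study, chosen by their labels: 4 of contused, walking rats and 4 of transected rats. All rats were Sprague-Dawley and had their injury at the T2 level of the thoracic cord. The walking group received a 25 g-cm contusion, began exercise 2.5 weeks later and walked on 5 days a week for 10 weeks, and its muscle was taken 13.5 weeks after injury. The transection group was not exercised, and its muscle was taken 8.5 weeks after injury. All animals were kept in small cages from day 4 of recovery, which restricted movement in both groups. Contused rats without exercise (taken at 11.5 weeks), contused rats that swam (13.5 weeks) and uninjured, unexercised rats (labelled 11.5 weeks), with 4 libraries each, serve as the frame. Type of injury, exercise and time after injury all change together between the walking and the transection group, so their parts in any difference below cannot be told apart.

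The soleus is a postural muscle of the lower hind limb, made up largely of slow, oxidative fibres that are active for most of the time an animal stands. A complete transection removes all descending drive to the motor neurons below the lesion, while a contusion leaves some fibre tracts in place. Loss of load and of nerve activity is known to shrink slow muscle and to shift its fibres toward a faster type, and stepping in shallow water loads the limbs while the water carries part of the weight.

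The deposited counts carry Ensembl identifiers without gene names, and 0 of the 47357 genes in the reference table could be matched to them. Genes are therefore described by direction, size, abundance and pattern over the groups, 4 are given by identifier, and neither pathways nor the markers that would check the tissue label were examined. Of 24613 identifiers, 17597 had a count in at least 1 of the 8 libraries, and 13398 had enough counts to be tested. Total counts ran from 21445449 to 36604027 in walking libraries, with 3 of the 4 at or below 23665744, and from 31877886 to 36438046 in transection libraries. The groups separated on the first principal component of the 8 libraries, which held 43.3% of the variance. Walking libraries lay between -37.2 and -29.0 on it, and transection libraries at 14.1, 25.9, 83.3 and 7.09 (libraries 1 to 4). Transection library 3 stood apart from its group on the first component and also on the second (20.2% of the variance), at -38.0 where the other transection libraries lay between 29.5 and 34.9. The number of genes called without it is given beside the main count. Other values below include it unless stated.

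Muscle of walking rats differed from muscle of transected rats at 2678 of the 13398 genes tested, or 20.0% (edgeR quasi-likelihood test, Benjamini-Hochberg adjusted p below 0.05). Of these, 1477 were higher after walking (11.0% of the genes tested) and 1201 were lower (8.96%). The genes that were higher after walking differed by more: 630 of them by over 2-fold, 155 by over 4-fold and 42 by over 8-fold, against 197, 17 and 4 of the genes that were lower. Their median log2 fold change, walking minus transection, was 0.90 (quartiles 0.63 and 1.34), and that of the lower genes was -0.63 (quartiles -0.83 and -0.51), while the median of all genes tested was 0.00. The median standard error (SE) of a log2 fold change was 0.21. It was 0.20 among the genes called higher and 0.16 among those called lower, so higher genes typically needed a larger change to be called. How far this bears on the sizes was not tested. These directions are relative to the bulk of the genes. When libraries were scaled by their totals alone, the median of all genes moved to 0.31, and 3366 genes were higher and 223 lower. Without transection library 3, 2188 genes were called, 58.5% of them higher after walking.

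**Figure D1:**
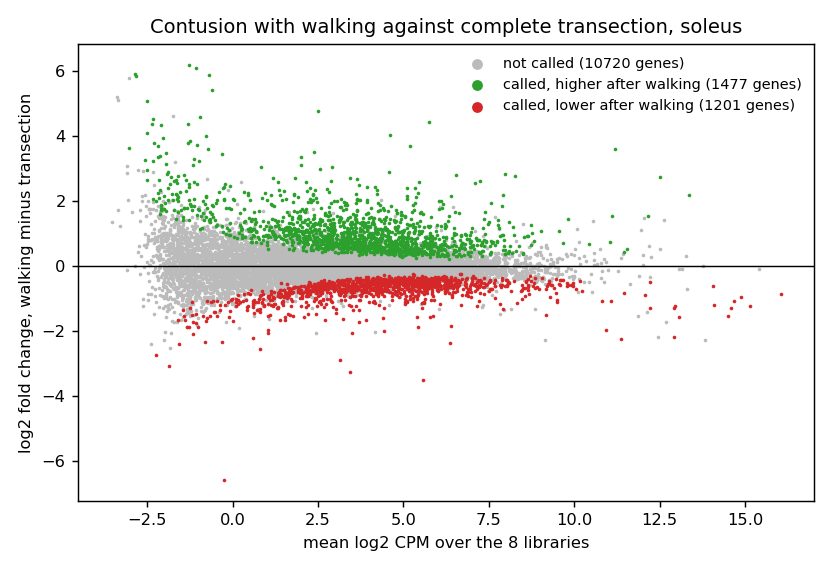
Each point is 1 of the 13398 genes tested, by its mean log2 CPM, counts scaled to a common library size, over the 8 libraries (horizontal axis) and its log2 fold change, walking minus transection (vertical axis). The 1477 genes called higher after walking reach larger changes than the 1201 called lower, except for a single point near -6.60 that rests on transection library 2.

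The overlap of single libraries was read from the same 8 libraries that gave the calls, so it is no separate support for them. In 2956 genes (22.1% of those tested) the 4 walking libraries did not overlap the 4 transection libraries, with walking above in 1595 (11.9%) and below in 1361 (10.2%). Of the called genes, 1253 higher and 955 lower ones had no overlap, and 224 and 246 had some. A further 748 genes had no overlap and were not called. The called gene with the lowest log2 fold change of all was of the overlapping kind. It stood at 0.352, 0.520, 0.141 and 0.317 CPM after walking and at 0.388, 130.8, 0.662 and 0.202 CPM after transection. Only transection library 2 was high, and without it the log2 difference was -0.28 (edgeR adjusted p = 0.816). Of the 2678 called genes, 1485 (55.5%) remained called when any single library of the 8 was left out: 912 higher and 573 lower. Without walking library 2, 783 genes were called lower.

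Both identifiers with the largest positive fold changes had few or no counts after transection, a level that choosing by fold change favours. ENSRNOG00000046421, which had the highest log2 fold change of the called genes that averaged 1 CPM or more and did not overlap between the groups, stood at 2.39, 1.88, 0.894 and 3.60 CPM in walking libraries 1 to 4. After transection it stood at 0.0970 CPM in library 1 and at 0 in the other 3, where a count of 0 allows 0.109, 0.132 and 0.0864 CPM. The groups gave 252 counts against 3, a ratio of transection to walking of 0.0110 per library size (95% exact interval 0.00224 to 0.0324, counting error only; edgeR adjusted p = 0.000219). ENSRNOG00000030022 showed the same picture, at 4.23, 2.48, 2.31 and 1.53 CPM after walking, and with 4 counts after transection, all in library 4. Its ratio was 0.0135 (0.00366 to 0.0350, counting error only; edgeR adjusted p = 0.000119), against 272 counts after walking. In uninjured muscle these genes averaged 3.00 ± 1.17 and 1.36 ± 0.609 CPM, and after contusion alone 2.13 ± 0.913 and 1.58 ± 0.783 CPM (SD, n = 4 each), ranges that overlap the walking libraries. With swimming they averaged 1.03 ± 0.706 and 2.38 ± 1.67 CPM (SD, n = 4 each), and swimming library 2 was low for both, at 0 (a count that allows 0.132 CPM) and 0.309 CPM, so low values were not confined to transection libraries. Of the 1477 genes called higher after walking, 11 had at most 3 counts over all transection libraries. ENSRNOG00000030022, with 4 counts, is not among them. Of the 1201 genes called lower, 0 had as few counts after walking. How many of all genes tested had so few counts was not counted, and total counts differed between the groups. These numbers are therefore not read as a result. In bulk muscle, fewer cells of a type and less RNA per cell cannot be told apart.

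At the other end were genes whose highest group mean was that after transection. ENSRNOG00000014237 stood at 3.92, 4.20, 3.95 and 2.71 CPM after walking, a narrow range, and at 58.6, 17.9, 44.9 and 19.5 CPM after transection. All transection libraries lay above all walking libraries. The log2 fold change was -3.26 (SE 0.42, edgeR adjusted p = 4.26e-05). It averaged 2.97 ± 1.19 CPM in uninjured muscle, 4.86 ± 1.93 after contusion and 6.69 ± 2.78 with swimming (SD, n = 4 each). ENSRNOG00000017716 had the lowest log2 fold change under the same limits, -3.52 (SE 0.90, edgeR adjusted p = 0.0115). It stood at 5.33, 49.6, 6.68 and 10.6 CPM after walking and at 219.5, 310.0, 193.8 and 107.7 CPM after transection. Walking library 2 was several times above the other walking libraries and still below every transection library; without it the log2 fold change was -4.77 (edgeR adjusted p = 0.00373). This gene averaged 48.2 ± 27.8 CPM in uninjured muscle and 30.2 ± 14.3 after contusion (SD, n = 4 each). With swimming it averaged 62.9 ± 85.3 CPM (SD, n = 4), and swimming library 2, at 190.3 CPM, lay within the transection range. For this gene neither swimming (edgeR adjusted p = 0.135) nor no injury (0.0731) passed the test against transection, while contusion alone did (0.04). Uninjured libraries still lay between 30.7 and 89.7 CPM, below every transection library, at a log2 difference of -2.11 from transection. Contusion against uninjured muscle did not pass at this gene (edgeR adjusted p = 0.856), so these outcomes do not set those groups apart.

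**Figure D2:**
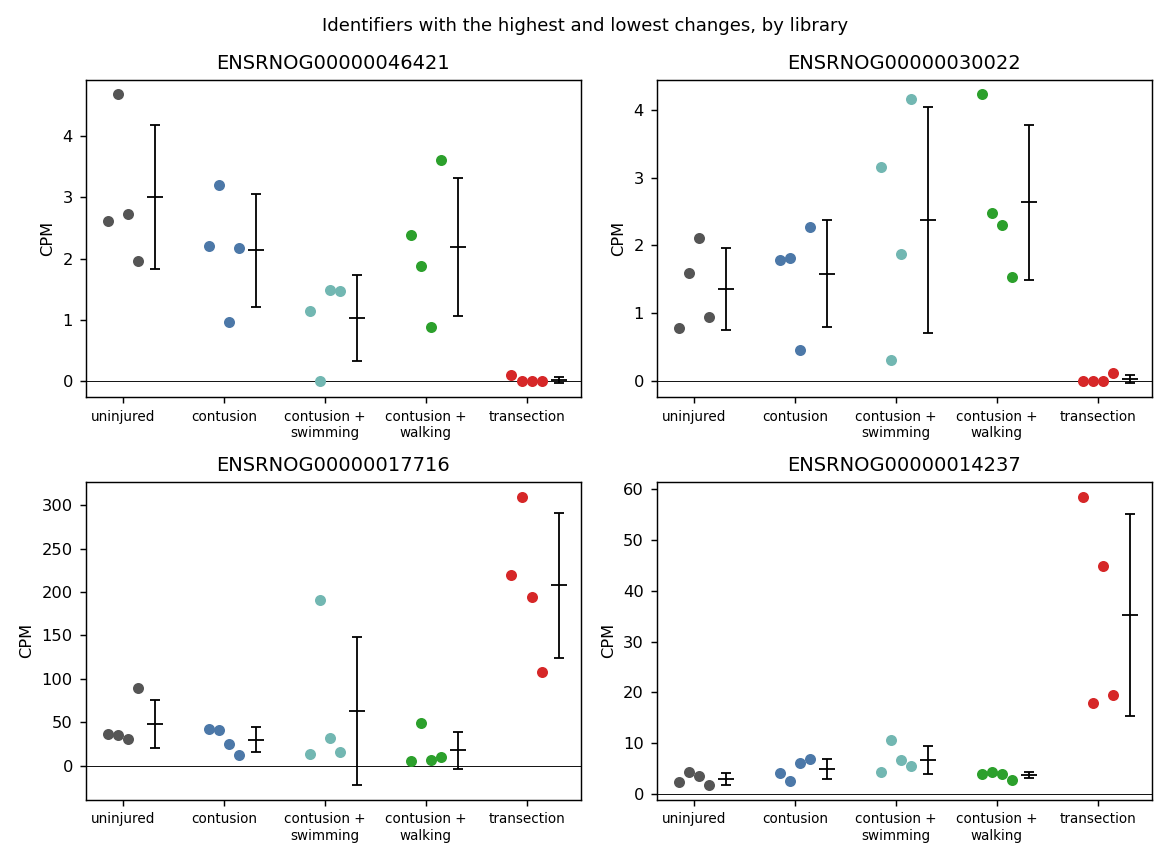
CPM of the 4 identifiers (vertical axes, linear) in each library of the 5 groups (horizontal axes); points are libraries 1 to 4 from left to right, bars the mean ± SD. In the upper panels the transection libraries sit at or near 0, at most 0.115 CPM; in the lower panels they sit above every walking library, from 107.7 CPM for ENSRNOG00000017716 and from 17.9 CPM for ENSRNOG00000014237.

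Transcripts at the top of the abundance range differed as well, and mostly in the opposite direction. Of the 10 most abundant genes over the 8 libraries, 8 were lower after walking than after transection and 0 were higher. Their log2 fold changes ran from -1.53 to -0.61. Ranks were taken on the mean CPM of both groups, so a gene can enter through high values after transection alone. The gene at rank 18 averaged 15583 CPM after walking, above the 11714 CPM of rank 9, and 2344 CPM after transection. The direction of these calls thus depends in part on the ranking. Together the 8 genes held 18.2%, 16.3%, 18.0% and 18.0% of all counts in walking libraries 1 to 4, and 28.2%, 32.9%, 30.3% and 25.5% in transection libraries 1 to 4. The 8 genes were chosen as lower after walking, so this separation follows from the choice. Uninjured libraries held between 13.5 and 17.8% in these genes, and contusion libraries between 18.1 and 22.9%. The most abundant gene averaged 50594 ± 3088 CPM after walking and 92385 ± 17882 after transection (SD, n = 4 each; log2 fold change -0.87, SE 0.17, edgeR adjusted p = 0.00145). Of the other members, the second in rank showed a log2 difference of -0.08 (edgeR adjusted p = 0.816). The eighth in rank averaged 6894 ± 2227 and 33463 ± 9408 CPM without overlap, and its log2 difference of -2.28 (SE 0.87) did not pass (edgeR adjusted p = 0.0761). It did pass when the fit held the walking and transection libraries alone (adjusted p = 0.000559) and with DESeq2 (adjusted p = 0.007). Under the other 16 of 18 alternatives it did not pass, with an adjusted p of up to 0.174 (edgeR without walking library 2).

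Among the 50 most abundant genes 18 were lower and 7 higher after walking, and among the 200 most abundant 51 were lower and 14 higher, read against 8.96% and 11.0% of all genes tested. The ranking by the mean of both groups limits these counts in the same way. Under scaling by totals alone, 14 of the 50 were lower and 12 higher. The abundant genes that were higher after walking nevertheless included large differences. They are given here without identifiers and were chosen after their values were seen. The gene with the largest rise among the 200 stood at 5407, 10473, 8805 and 9734 CPM in walking libraries and at 541.7, 406.1, 833.3 and 1048 CPM in transection libraries. Its log2 fold change was 3.61 (SE 0.63, edgeR adjusted p = 0.00074), and the groups did not overlap. The gene with the third largest rise stood at 12628, 19652, 14031 and 16023 CPM after walking and at 1614, 1661, 2418 and 3681 CPM after transection (log2 fold change 2.73, SE 0.59, edgeR adjusted p = 0.00349). Uninjured libraries ran from 8518 to 10573 CPM for the first of these genes, a range that held 3 of the 4 walking libraries, with library 1 below it. They ran from 15867 to 17995 CPM for the other, where the walking libraries lay below, within and above that range.

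The gene with the largest fall among the 200 stood at 1213, 797.0, 1658 and 1407 CPM after walking and at 5611, 5933, 8388 and 3969 CPM after transection. Its log2 fold change was -2.24 (SE 0.59, edgeR adjusted p = 0.0134). In uninjured muscle it was lower still, between 147.1 and 543.4 CPM, below every walking library. The gene with the third largest fall stood at 893.3, 733.2, 1068 and 1452 CPM after walking and at 3163, 4560, 5968 and 2466 CPM after transection (log2 fold change -1.96, SE 0.26, edgeR adjusted p = 2.83e-05). Its uninjured libraries ran from 550.6 to 975.9 CPM and overlapped the walking libraries.

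The counts were spread over more genes after walking. Counts in a library's 50 top genes made up 44.3%, 47.3%, 48.5% and 48.6% of its total in walking libraries 1 to 4 and 55.4%, 58.5%, 60.2% and 53.7% in transection libraries 1 to 4. The means were 47.2 ± 2.01% and 57.0 ± 2.91% (SD, n = 4 each), a difference of -9.75 percentage points with no overlap. An exact permutation test (two-sided) gave p = 0.0286, which is as low as this design can go; adjusted by Benjamini-Hochberg over 3 measures it was 0.0429. The effective number of genes, the number of equally abundant genes that would give the same Shannon entropy, was 815 ± 106 after walking and 456.5 ± 92.3 after transection (exact permutation p = 0.0286, adjusted 0.0429; higher in 4 of 4 walking libraries than in any transection library). At the depth of the smallest library of the study, 15375 ± 274 genes would have had a count after walking and 14693 ± 690 after transection. These ranges overlapped, at 14985 to 15587 and 13712 to 15239, and the difference did not pass (exact permutation p = 0.0857, adjusted 0.0857). The lowest value, 13712, was that of transection library 3.

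**Figure D3:**
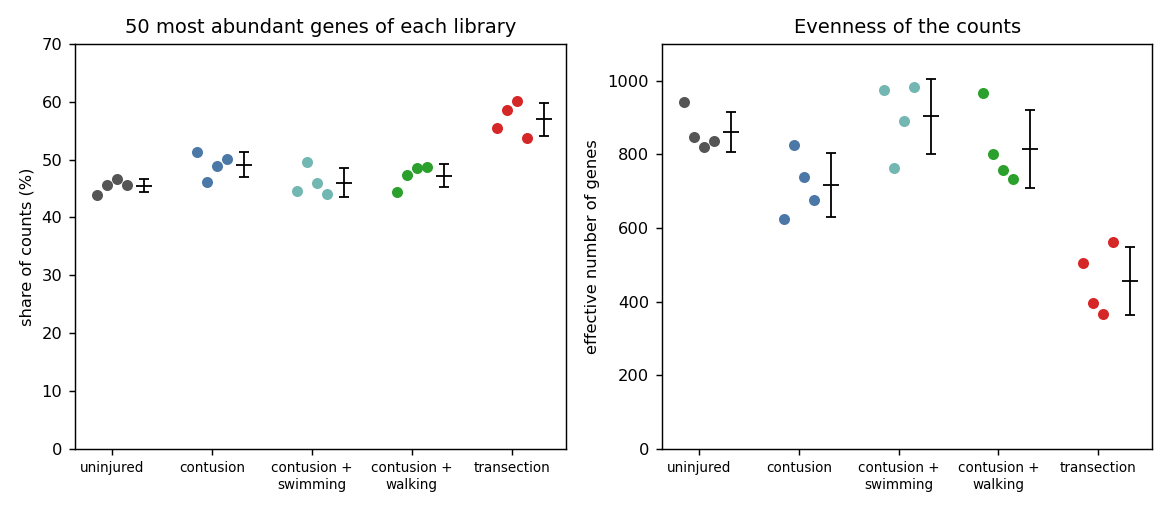
Share of counts in the 50 most abundant genes of each library (left, percent) and effective number of genes (right) for the 5 groups; points are libraries 1 to 4 from left to right, bars the mean ± SD. The 4 transection libraries, at 53.7 to 60.2% and 365 to 562 genes, lie outside the range of the 4 walking libraries, at 44.3 to 48.6% and 733 to 968 genes.

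The balance of higher and lower calls was also read by abundance, as a description. The tested genes were divided into 10 classes of nearly equal size by mean abundance over the 8 libraries. In class 1, the least abundant (median 0.379 CPM), 105 genes were higher after walking and 23 lower. Every one of them differed by over 2-fold. The median SE in this class was 0.59, and no smaller differences were called. What set this SE was not tested. In class 5 (median 8.87 CPM) 195 were higher and 115 lower, 67 and 13 of them by over 2-fold. In class 10 (median 154 CPM) 146 were higher and 209 lower, 36 and 26 of them by over 2-fold. The larger number of lower calls in class 10 depends on the scaling: with median-of-ratios factors 149 genes were higher and 199 lower, and with totals alone 443 were higher and 59 lower. The share of genes called rose from 9.56% in class 1 to 26.5% in class 10. The 1477 genes called higher together held 12.9 to 16.0% of the counts in walking libraries and 4.05 to 5.54% in transection libraries, and the 1201 called lower held 25.2 to 28.8% and 39.9 to 48.6%; the choice of the genes fixes these directions.

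**Figure D4:**
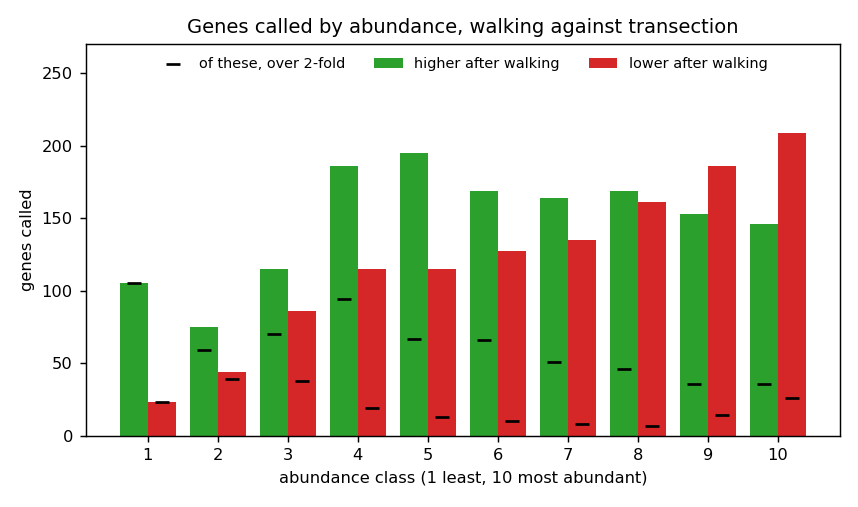
Number of genes called higher (green) and lower (red) after walking (vertical axis) in 10 classes of abundance (horizontal axis, 1 the least abundant); black marks give the number that differed by over 2-fold. Higher calls outnumber lower ones up to class 8 and the order turns in classes 9 and 10, where 153 and 146 genes were higher and 186 and 209 lower; scaled by totals alone it does not turn (460 and 443 higher, 33 and 59 lower).

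At the called genes it was the transection libraries that stood apart from the rest of the study. For 627 of the 1477 genes higher after walking, all 4 transection libraries lay below all 16 other libraries, and for 364 of the 1201 lower genes they lay above all 16; over all genes tested, transection lay below the other 16 in 646 genes (4.82%) and above in 403 (3.01%). Walking libraries lay above all 16 others in 5 genes (0.0373%) and below in 0 (0%). Contusion alone, swimming and no injury were each also compared with the same 4 transection libraries. Since the transection libraries are shared and helped choose the genes, the values are given side by side only. Over the 1477 genes the median log2 difference from transection was 0.90 with walking, 0.79 with contusion alone, 0.97 with swimming and 0.89 without injury. Over the 1201 genes it was -0.63, -0.49, -0.64 and -0.59. Over all genes tested these medians were 0.00, -0.01, 0.00 and -0.02.

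Contusion alone differed from transection at 2053 genes (15.3%), with 1240 higher (9.26%) and 813 lower (6.07%). Of the same 13398 genes, 2088 were called higher and 1845 lower with swimming than after transection. Without injury, 1976 were called higher and 1789 lower than after transection. The count for walking was thus larger than that for contusion alone and smaller than those for swimming and no injury. For walking and contusion alone, the test of the difference between their comparisons with transection is walking against contusion alone. It called 0 of 13398 genes (0%) with edgeR, DESeq2 and voom alike, and 426, 454 and 1319 genes had an unadjusted p under 0.05. With no difference at any gene, a share of 0.05 of the genes tested would fall under that limit. The main edgeR count and the DESeq2 count lie below that share and the voom count above it. The edgeR count varied with the libraries used. It was 248 without contusion library 4. Without transection library 3 and swimming library 2 together it was 693 of 13516 genes, above that share. No gene was called in either fit. The values above therefore cannot be called particular to walking. Walking against uninjured muscle called 62 genes (0.463%), 22 higher (0.164%) and 40 lower (0.299%). Among the 1477 genes 0 were higher and 8 lower in that comparison, and among the 1201 genes 10 were higher and 4 lower; the walking libraries are shared with the choice of the genes.

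The position of each library on the called genes was read as the median of its log2 CPM minus the midpoint between the walking and the transection mean. On the genes higher after walking, the 12 libraries outside the compared groups lay between 0.30 and 0.60, on the walking side. They entered the calls only through the filter, the scaling and the shared estimate of spread. Walking libraries lay between 0.39 and 0.54 and transection libraries between -0.64 and -0.34. On the genes lower after walking, the 12 libraries lay between -0.42 and -0.12, walking libraries between -0.38 and -0.28 and transection libraries between 0.18 and 0.46. Contusion libraries were nearest to the midpoint on average, at 0.36 ± 0.04 and -0.18 ± 0.05, beside 0.45 ± 0.06 and -0.27 ± 0.09 for uninjured libraries (SD, n = 4 each).

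**Figure D5:**
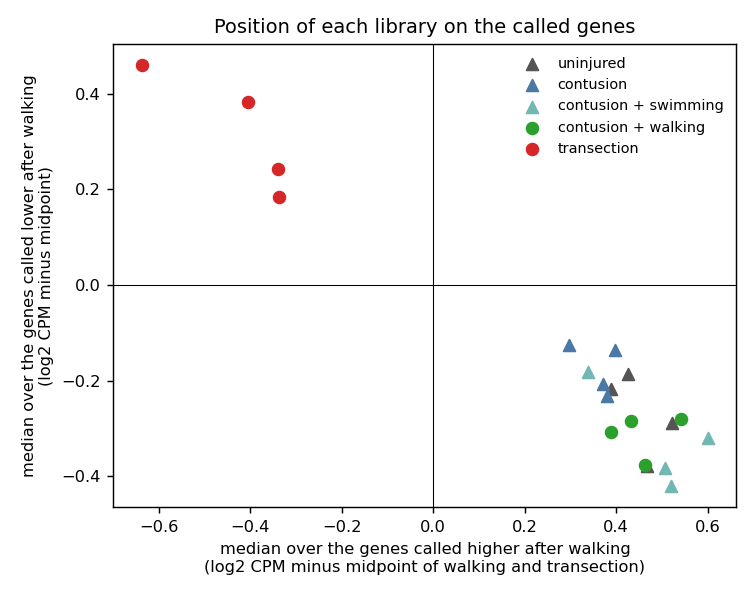
Each point is a library, placed by its median log2 CPM relative to the midpoint of walking and transection over the genes called higher after walking (horizontal axis) and over those called lower (vertical axis). Circles are the compared groups, triangles the others. All 16 libraries other than transection lie in the lower right, and the 4 transection libraries in the upper left, with library 3 the farthest out at -0.64 and 0.46.

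Contusion alone against uninjured muscle shares no library with the walking and transection groups, so it reads the same genes in other animals. On the genes higher after walking than after transection, contusion lay below uninjured muscle by a median log2 value of -0.09 (quartiles -0.26 and 0.06), and 66.8% of the 1477 genes were below 0. On the genes lower after walking, contusion lay above uninjured muscle by 0.10 (quartiles -0.03 and 0.25), and 70.1% of the 1201 genes were above 0. Over all genes tested the median was 0.01, with 52.2% above 0. At no single gene did this pass: 0 of 13398 genes (0%) were called by edgeR for contusion against uninjured, while 675 higher and 638 lower ones had an unadjusted p under 0.05. Among the 1477 genes, 25 were higher and 158 lower at that limit, and among the 1201 genes 155 were higher and 30 lower. The lean toward the transection side was thus small in contused muscle. A like lean was already known for genes chosen by transection against uninjured muscle, so this is no independent support for it. Scaled by totals alone, these medians were -0.19 and -0.01, on each side of a median of -0.09 over all genes.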

How the data were processed

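The soleus RNA of 20 rats was sequenced from stranded poly-A libraries, per the labels' protocols. The values the authors deposited are raw whole-number counts per Ensembl gene, 1 column per library; per the submitters' processing notes, FastQC 0.10.1, HTSeq and build rn6 were used. Sources used here do not name the aligner, the annotation or the strand setting, so overlapping or near-identical genes may share counts. Every column matched 1 sample label, 0 rows named no gene, and library pairs within the compared groups differed far beyond counting error (chi-square per degree of freedom 26.5 to 133).

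All 20 libraries entered 1 fit with a mean per group (edgeR 4.0.16 in R 4.3.3, quasi-likelihood F test with robust dispersions, trimmed mean of M values, filterByExpr at a minimum count of 10, 15 residual degrees of freedom). Each SE was obtained from the F statistic, as |log2 fold change| over its root, and CPM use the scaled library sizes. Components and positions use log2 CPM with a prior count of 2. The labels describe separate animals. The tests were checked on simulated counts. DESeq2 1.42.0 and voom in limma 3.58.1 were alternatives, with other scalings, filters, a replicate block, the compared groups alone and each library left out.

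The comparison, the gene lists and the rules were chosen with earlier results of these data known. The rule for named genes needed symbols (the 12 highest and 12 lowest, and members of gene and marker lists); in their absence it takes the 2 highest and 2 lowest called identifiers that average 1 CPM or more and do not overlap. The lists were not used here. Figures were drawn with matplotlib 3.10.9.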

Additional observations from a re-analysis of the deposited data

Results flagged for a closer look

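The 4 values of a group were examined 64 times, for library measures and for CPM of the genes described. In 10 of these 1 library stood far from the rest of its group. About 3.2 would do so by chance if the sets were independent and normally distributed. Many measures are related and several genes were chosen for extreme values, so the count cannot be set against that number. Walking library 4 held 36604027 counts, the next highest 23665744. Walking library 2 had 16.27% of its counts in the 8 abundant genes lower after walking, the next lowest 17.97%. Transection library 3 lay at -38.04 on the second component, the next lowest 29.52.

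ENSRNOG00000017716 held a value apart in 3 groups: 49.6 CPM in walking library 2 (next 10.6), 190.35 CPM in swimming library 2 (next 31.9) and 89.688 CPM in uninjured library 4 (next 36.3). In transection library 1, ENSRNOG00000046421 was at 0.097023 CPM, and ENSRNOG00000030022 at 0.11521 CPM in transection library 4, with 0 in the other transection libraries. The called gene with the lowest log2 fold change stood at 130.8 CPM in transection library 2, the next highest 0.662. The gene with the second largest rise among the 200 most abundant stood at 240.8 CPM in transection library 4, the next highest 103.0.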

How the results depend on the processing

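The number of genes called stayed within 1.5 times of 2678 under all 18 alternatives (1936 to 3648; 1936 to 2642 with a library left out). The division did not: library totals as the only scaling gave 3366 higher and 223 lower, since the median of all genes moved to 0.31. With a library left out, 1153 to 1435 genes were higher and 783 to 1207 lower, the lowest count being that without walking library 2; the cause was not tested. Median-of-ratios scaling, no filter, a filter at 1 mean CPM, the compared groups alone, DESeq2, voom, dispersions without the robust option (added after seeing the data) and leaving out transection library 3 with swimming library 2 gave 2656, 2300, 2640, 2201, 3093, 3648, 2691 and 2591 genes. Of the called genes, 2504 were called in the same direction by edgeR, DESeq2 and voom.

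With the replicate number as a block 2484 genes were called. The numbers share no stated origin: deviations of same-numbered walking and transection libraries correlated at 0.19, -0.13, 0.09 and 0.00, and not every library correlated best with its own number, so they were not treated as pairs. The 4 identifiers kept their direction and call under all 18 alternatives, with adjusted p up to 0.0351. The called gene with the lowest change was lost without transection library 2 (0.816), with the block (0.0929), with the compared groups alone (0.128) and with voom (0.366), and DESeq2 gave it no adjusted p. The difference in the share of the 50 most abundant genes, -9.75 percentage points, ran from -10.8 to -8.69 with a library left out. Walking against contusion gave 0 genes under all 18 alternatives.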

Other observations

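Swimming library 2, outside the compared groups but part of the shared fit, lay between the walking and the transection libraries at the genes that differed most. On the 155 genes over 4-fold higher after walking, its median position was -0.51, where the 11 other libraries outside the compared groups lay between 0.85 and 1.38 and transection libraries between -1.54 and -0.99. It lay on the transection side of the midpoint in 92 of the 155 genes, against at most 26 in any of the other 15 libraries outside the transection group. On the 17 genes over 4-fold lower it lay at the midpoint, at -0.01 where transection libraries lay between 0.86 and 1.49, with 8 of 17 genes on the transection side against at most 6 in any of the other 15. On the 847 called genes under 2-fold higher it lay at 0.25, where the 11 other libraries lay between 0.23 and 0.41. Of these genes, 279 lay on the transection side in it, against at most 184 in any of the other 15. Of the 1004 called genes under 2-fold lower, 278 did so in it, against at most 344. The abundant gene with the largest rise was at 255.7 CPM in it, below all 4 transection libraries, and at 5918 to 8048 CPM in the other swimming libraries; the gene with the third largest rise was at 638.8 CPM, against 15831 to 18640. The abundant gene with the largest fall was at 6207 CPM in it, among the transection libraries, against 692.8 to 1132. The gene with the third largest fall was at 783.3 CPM in it, below every other swimming library and every transection library. Of the 14 abundant genes higher after walking, 11 lay on the transection side in swimming library 2, against at most 4 in any of the other 15. Its position on them was -1.05, beyond the transection libraries at -0.71 to -0.52. Of the 51 abundant genes lower after walking, 16 lay on the transection side in it, beside at most 14 in any of the other 15.

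Within the walking group, library 1 was the lowest at the abundant gene with the largest rise (5407 CPM) and at that with the third largest (12628 CPM), and the nearest to transection on the 14 abundant genes higher after walking, at 0.31 where the other walking libraries lay between 0.57 and 0.71. Over all 1477 genes higher after walking, the same library was the farthest from transection of the 4, at 0.54 where the others lay between 0.39 and 0.46. On the 14 genes the swimming libraries other than library 2 lay between 0.25 and 0.47, and uninjured libraries between 0.63 and 0.93.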
